A study of Mus musculus with 9 samples.

Results

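Lysosomal proteases and the proton pump that acidifies them were followed as 41 of the 19930 genes measured in mammary adipose stromal cells (ASCs) of nulliparous, lactating and involuting mice. The members were every gene whose symbol names cathepsin A to F, H, K, L, O, S, V, W or Z, a V0 or V1 subunit of the vacuolar ATPase, its accessory proteins Atp6ap1 and Atp6ap2, Lamp1, Lamp2, legumain (Lgmn), Npc2 or Hexa, and that had a probe set with no other symbol. They comprised 10 cysteine cathepsins, 3 aspartic or serine cathepsins, Lgmn, 13 V1 subunits, 8 V0 subunits, 2 accessory proteins, 2 membrane glycoproteins, and Npc2 with Hexa. Atp6v0c and Atp6v1fnb were not analysed here. The rule itself uses symbols alone, and 3 members (Atp6v0a2, Atp6v1f and Atp6v1g1) were means of 2 probe sets.

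Expression was measured on 9 Affymetrix Mouse Gene 1.0 ST arrays, 3 for each stage, in female Balb/c mice for which the labels name no treatment or engineered allele. Nulliparous mice were 8 weeks old and had not been housed with males (ASC-Ns), lactating mice were at day 5 after birth (ASC-Ls), and involuting mice were at day 3 after the nursing pups were removed (ASC-Is). All stages shared a collagenase and hyaluronidase digestion of the gland and a centrifugation. The labels name Trizol extraction of the adipose stroma, whereas the study's methods describe an RNeasy purification from cultures of low passage. Several mice gave the cells, but how they were divided over the arrays is not stated, so p-values reflect the spread between preparations only. Values are log2 signals, on which a difference of 1.00 is a doubling, and since probes differ in brightness each gene is compared only with itself.

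Lysosomes break down proteins, lipids and glycans taken up by endocytosis or autophagy. Cathepsins are their main proteases, mostly cysteine proteases that are made as inactive precursors and mature at acidic pH. That pH is kept by the vacuolar ATPase, whose V1 sector hydrolyzes ATP in the cytosol and turns a rotor in the membrane sector V0, which carries the protons. Macrophages and osteoclasts hold much of this machinery, fibroblasts use cathepsins K and L in collagen turnover, and in the mammary epithelium of mice lysosomal proteases take part in the cell death of early involution.

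The arrays were first checked against markers of the cells they could hold. Fibroblast and stromal markers had a mean signal of 10.29 to 11.41 over the 9 arrays (14 genes measured), with Col1a1, the main chain of type I collagen, at 12.63 to 13.36. The adipocyte list was low throughout (9 genes, 5.45 to 5.61), and Adipoq, the adipocyte hormone adiponectin, stayed between 3.81 and 4.41. Replicate 2 of ASC-L stood apart, with a mean of 8.41 for 17 luminal epithelial markers against 5.91 and 6.13 in the other ASC-L arrays, and replicate 2 of ASC-I lay at 7.28 against 5.85 and 5.75. These 2 arrays were also the highest of their stages for basal epithelial, milk and endothelial lists. Replicate 3 of ASC-N had the lowest mean of 29 macrophage markers, 5.96 against 7.58 and 7.55 in the other ASC-Ns. It was also the lowest of the 9 arrays for basal epithelial (5.79) and endothelial (5.07) lists, and its luminal mean was 5.75 against 6.74 and 6.76. Macrophage markers were lower in ASC-Ls (6.29 to 6.44) than in ASC-Is (6.90 to 8.07), with 13 of 29 called lower at the limits given below. Correlations between arrays of a stage over all genes were 0.956 to 0.990. In bulk RNA fewer cells of a type and less RNA per cell cannot be told apart.

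Hardly any lysosomal gene passed the limits of the test between stages. Differences were tested with limma, and a gene was called at a difference of 1.5-fold or more with a p under 0.05 before adjustment for the number of genes. Between ASC-Ls and ASC-Ns no member was called (0 of 41), with 0.627% of all genes called (0.171% higher, 0.457% lower in ASC-Ls). For ASC-Ls against ASC-Is the count was also 0 of 41, with 0.482% of all genes called (0.0753% higher, 0.406% lower in ASC-Ls). For ASC-Is against ASC-Ns 1 of 41 was called, Atp6v0d2 (higher in ASC-Is), with 0.251% of all genes called (0.0702% higher, 0.181% lower in ASC-Is). With no limit on fold, a p under 0.05 before adjustment was reached by the same counts of members, 0, 0 and 1, and by 3.64%, 1.8% and 1.56% of all genes. After Benjamini-Hochberg adjustment over 19930 genes no gene of the array passed 0.05 in any of the 3 comparisons, and adjusted p was 0.998 or more for every member, so members are described by their differences with standard errors (SE) or 95% intervals.

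The median member differed by 0.03 between ASC-Ls and ASC-Ns, with 23 members higher and 18 lower, and the median over all genes was 0.01. The same values for ASC-Ls against ASC-Is were 0.03, 23, 18 and 0.01. For ASC-Is against ASC-Ns the median was -0.01, with 16 higher and 25 lower, beside 0.00 over all genes. The direction of the ASC-L medians turned with single arrays. Without ASC-L replicate 3, 13 members were higher and 28 lower in ASC-Ls than ASC-Ns (median -0.15), and 11 higher and 30 lower than in ASC-Is (median -0.17). Without ASC-L replicate 2 the counts were 35 and 6 (median 0.14), and 31 and 10 (median 0.18). How far a change can be bounded differed between members. The 95% interval lay inside a 1.5-fold change in either direction for 16, 14 and 22 of the 41 members in the 3 comparisons, in the order above, and inside a 2-fold change for 33 in each. For the other 8 members of each comparison a difference of 2-fold could not be bounded with 3 arrays per stage.

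**Figure D1:**
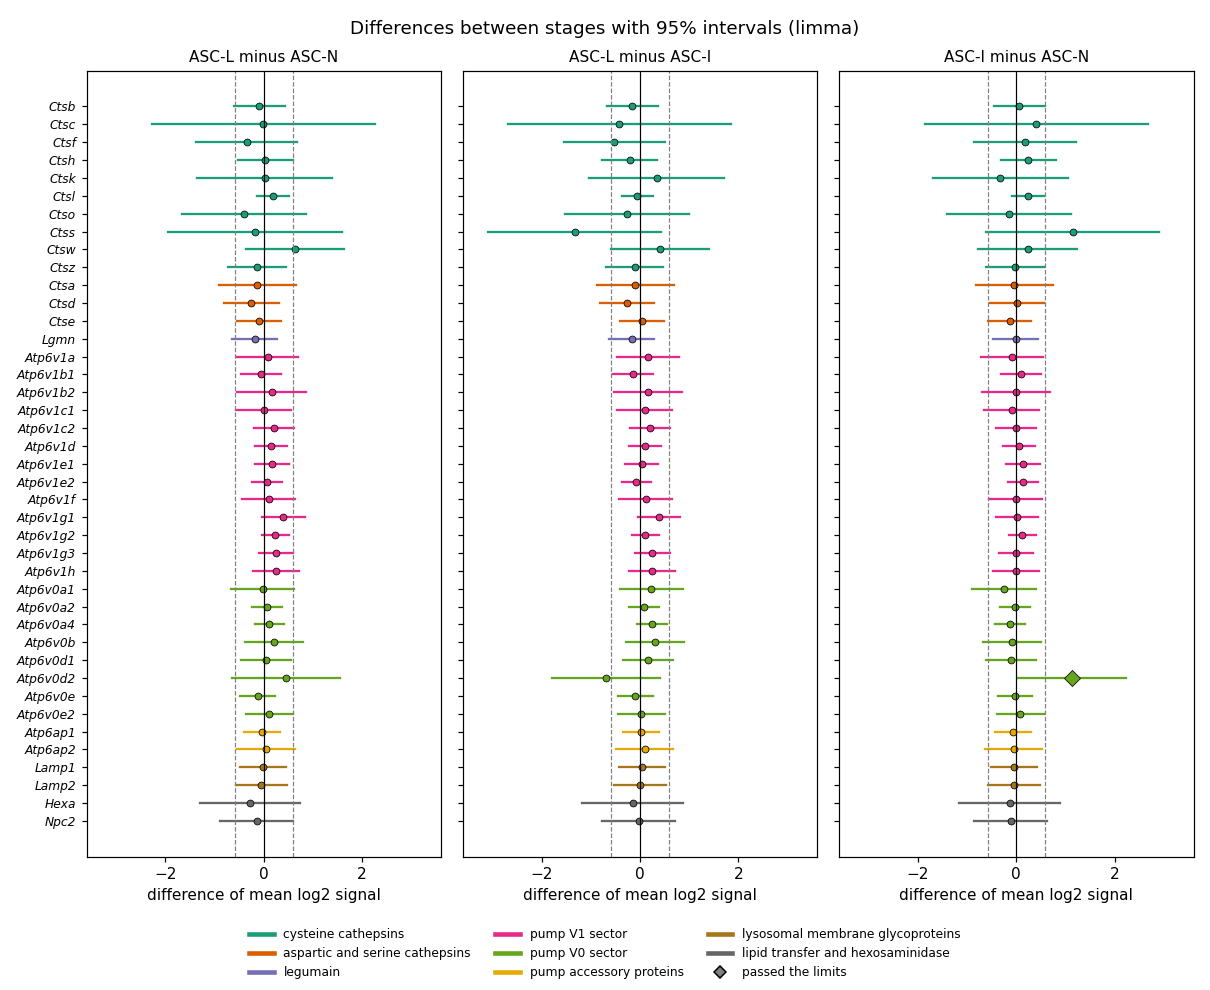
Difference of mean log2 signal (horizontal axis) between stages for each of the 41 genes (vertical axis), with 95% limma intervals, n = 3 arrays per stage. Dashed lines mark a 1.5-fold difference. Most points lie near 0, the widest intervals belong to Ctsc, Ctss, Ctsk and Ctso, and the diamond marks Atp6v0d2, 1.14 higher in ASC-Is than ASC-Ns.

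Promoter sequence, which the rule did not use, was searched for a motif of lysosomal genes and for longer forms of it. Many lysosomal genes are known to carry the E-box CACGTG near their start, which is the core of the element bound by TFEB, a transcription factor that activates lysosomal genes. In RefSeq promoters of GRCm38.p6, which run from 250 bases before the start to 50 bases after it, 31 of the 41 members had an entry. CACGTG, which reads the same on both strands, stood in 10 of these 31 (32.3%) against 8.09% of 27025 genes with an entry. The 10 were Atp6v0b, Atp6v0d1, Atp6v0e, Atp6v1a, Ctsa, Ctsd, Ctsf, Ctsl, Lamp1 and Lgmn. The longer palindrome TCACGTGA, which contains the first motif and was searched after the first result was seen, stood in 5 of 31 (16.1%) against 1.12%. With a G added before it and a C after it, the palindrome is the 10-base core named for TFEB targets. This form stood in none of the 31 and in 0.37% of genes, so the matches above are to shorter forms only. With so few genes matching, its absence from 31 promoters tells little. A match describes letters in this window and is not a measured binding site.

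The promoters of Lamp1, Ctsa, Atp6v0d1 and Ctss are printed because they show 4, 2, 1 and 0 matches, and because Atp6v0d1 and Ctss take part in the comparisons that follow. Each runs 5' to 3' over 140 bases, of which the last 30 are transcribed, and capitals mark CACGTG. For Ctsa, which has 2 listed starts, the start with the most matches is shown.
Lamp1 (chr8:13159051-13159190, plus strand): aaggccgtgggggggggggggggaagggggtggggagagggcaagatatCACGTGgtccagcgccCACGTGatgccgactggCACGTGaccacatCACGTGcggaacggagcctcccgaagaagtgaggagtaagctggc
Ctsa (chr2:164833663-164833802, plus strand): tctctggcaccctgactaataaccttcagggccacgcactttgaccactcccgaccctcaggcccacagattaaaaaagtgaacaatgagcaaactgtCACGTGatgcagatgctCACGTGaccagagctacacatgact
Atp6v0d1 (chr8:105566035-105566174, minus strand): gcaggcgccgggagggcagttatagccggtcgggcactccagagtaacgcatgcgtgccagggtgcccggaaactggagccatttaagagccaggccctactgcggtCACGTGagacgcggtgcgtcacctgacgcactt
Ctss (chr3:95526676-95526815, plus strand): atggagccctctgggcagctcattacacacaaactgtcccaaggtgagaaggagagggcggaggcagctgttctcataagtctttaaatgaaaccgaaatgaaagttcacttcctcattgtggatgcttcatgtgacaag
In Lamp1 the boxes began 61, 45, 28 and 15 bases before the start, and in Atp6v0d1 the box began 3 bases before it and crossed it. Atp6v0a2, Atp6v0d2, Atp6v1b2, Atp6v1c1, Atp6v1g1, Atp6v1h, Ctsb, Ctse, Ctsh and Ctsw had no entry.

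The V0 sector held the 1 called difference. Atp6v0d2 encodes the d2 isoform of subunit d, which couples V0 to the rotor and is known in mice from osteoclasts, where it is needed for cell fusion, and from macrophages and kidney. Its log2 signal was 5.95, 5.67 and 4.42 in ASC-Ns, 5.10, 6.65 and 5.61 in ASC-Ls, and 6.12, 7.03 and 6.32 in ASC-Is. Every ASC-I array lay above every ASC-N array, where 6.54% of all genes did not overlap, while the ASC-L arrays spanned both stages. The mean was 1.14 higher in ASC-Is than ASC-Ns (2.21-fold, SE 0.48, 95% interval 0.04 to 2.24, limma, adjusted p = 1.00). The exact two-sided permutation test over arrays gave p = 0.1, the smallest that 3 against 3 arrays allow. The limits were no longer passed without the low ASC-N array, replicate 3 (0.68), or without ASC-I replicate 2 (0.87), ASC-I replicate 3 (1.23) or ASC-L replicate 3 (1.14). ASC-Ls were 0.44 higher than ASC-Ns (SE 0.48), and their difference from ASC-Is was -0.70 (SE 0.48). Without ASC-L replicate 2 the latter became -1.13 (SE 0.45, limma, adjusted p = 1.00) and passed the limits, with 0.492% of all genes called.

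Cell type lists moved with some of these values. The lowest Atp6v0d2 signal, 4.42, was in the ASC-N array with the lowest macrophage mean (5.96), which was also lowest for basal epithelial and endothelial lists. The array with the highest macrophage mean, ASC-I replicate 1 (8.07), had a signal of 6.12. The highest values, 7.03 and 6.65, were in the ASC-I and ASC-L arrays with the highest luminal means (7.28 and 8.41). Without both epithelium-rich arrays the difference between ASC-Is and ASC-Ns was 0.87, and without these and ASC-N replicate 3 it was 0.41, neither of which passed the limits. The part of any of these cell types in the result was not tested. Mean signal of Atp6v0d2 (5.87) was below the lowest array median over genes (6.22), so its values lie in the dim range of the array.

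The d1 isoform is made in most cells and is the partner form of the same subunit. Atp6v0d1 measured 9.65, 9.82 and 10.28 in ASC-Ns, 9.84, 9.62 and 10.44 in ASC-Ls, and 9.83, 9.77 and 9.82 in ASC-Is. All 3 stages overlapped, and ASC-Is differed from ASC-Ns by -0.11 (SE 0.22, 95% interval -0.62 to 0.40). ASC-Ls differed by 0.05 from ASC-Ns and by 0.16 from ASC-Is. The difference between both isoforms in their response was not tested.

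Other V0 subunits kept within 0.30 of no change in each comparison. Subunit a, through which protons pass, was represented by Atp6v0a1, Atp6v0a2 and Atp6v0a4, whose differences ranged from -0.25 (Atp6v0a1, ASC-Is against ASC-Ns) to 0.25 (Atp6v0a4, ASC-Ls against ASC-Is). The 2 probe sets of Atp6v0a2 disagreed in sign for ASC-Ls against ASC-Ns (-0.10 and 0.23) and for ASC-Is against ASC-Ns (-0.18 and 0.14). Atp6v0b, a proteolipid of the rotor ring, was 0.20 higher in ASC-Ls than ASC-Ns (SE 0.26) and 0.30 higher than in ASC-Is (SE 0.26). Atp6v0e and Atp6v0e2, the small subunit e, differed by -0.12 to 0.11.

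V1 subunits leaned upward in ASC-Ls without any being called. Of the 13, 12 had a higher mean in ASC-Ls than ASC-Ns (median 0.16, range -0.05 to 0.40) and 11 a higher mean than in ASC-Is (median 0.11). This lean rested largely on ASC-L replicate 3. Without that array 8 of 13 were higher than ASC-Ns (median 0.06) and 6 of 13 higher than ASC-Is (median -0.05). ASC-Is against ASC-Ns gave 6 higher and 7 lower with a median of -0.0037 and no member beyond 0.14.

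Atp6v1g1, the widely expressed form of the stator subunit G, had the largest difference of the sector. It measured 10.09, 10.11 and 10.21 in ASC-Ns, 10.10, 10.72 and 10.80 in ASC-Ls, and 10.05, 10.37 and 10.02 in ASC-Is. Replicates 2 and 3 of ASC-L lay above every other array, while replicate 1 lay among the ASC-Ns. ASC-Ls were 0.40 higher than ASC-Ns (SE 0.19, 95% interval -0.03 to 0.83) and 0.39 higher than ASC-Is (SE 0.19), and both probe sets gave 0.39 and 0.40 against ASC-Ns. Without ASC-L replicate 1 the differences were 0.62 (SE 0.14, limma, adjusted p = 0.902) and 0.61 (SE 0.14, adjusted p = 0.963), which passed the limits. In that setting 2.03% and 1.66% of all genes were called, against 0.627% and 0.482% with all arrays.

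The G3 form, known from kidney, was dim throughout. Atp6v1g3 measured 4.28, 4.12 and 4.52 in ASC-Ns, 4.40, 4.64 and 4.61 in ASC-Ls, and 4.51, 4.31 and 4.07 in ASC-Is, with overlap between all stages. Its differences of 0.24 and 0.25 for ASC-Ls against ASC-Ns and ASC-Is (SE 0.15) did not pass the limits. The neuronal G2 form was the 1 member whose ASC-L arrays did not overlap the ASC-N arrays, where 8.59% of all genes did not overlap. Atp6v1g2 measured 7.04, 7.02 and 7.04 in ASC-Ns, 7.43, 7.12 and 7.25 in ASC-Ls, and 7.23, 6.99 and 7.25 in ASC-Is. The ASC-L arrays lay 0.23 higher on average (SE 0.12).

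The catalytic and connecting subunits of V1 differed by less than their spread. Atp6v1a, the ATP-hydrolyzing subunit A, differed by 0.08, 0.16 and -0.09 for ASC-Ls against ASC-Ns, ASC-Ls against ASC-Is and ASC-Is against ASC-Ns, and its intervals lay inside -0.71 to 0.79. Atp6v1b2, the common form of subunit B, differed by 0.16, 0.16 and -0.0037, and Atp6v1b1, the form of kidney and inner ear, by -0.05, -0.15 and 0.10. Subunits C to F and H (Atp6v1c1, Atp6v1c2, Atp6v1d, Atp6v1e1, Atp6v1e2, Atp6v1f and Atp6v1h), which form the stalks and link V1 to V0, ranged from -0.09 to 0.25.

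The accessory proteins assemble the pump and also serve as its link to hormone signaling, since Atp6ap2 is the prorenin receptor. Atp6ap1 measured 10.69, 10.72 and 10.94 in ASC-Ns, 10.63, 10.51 and 11.08 in ASC-Ls, and 10.62, 10.68 and 10.85 in ASC-Is. Atp6ap2 measured 9.45, 9.75 and 9.71, then 9.23, 9.49 and 10.32, then 9.38, 9.73 and 9.64 in the same order. Stages overlapped for both genes, and the largest of their 6 differences was 0.10.

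Cysteine cathepsins differed widely in their spread between arrays. Ctsb and Ctsl are found in nearly all cells, and their SDs within stages, 0.31 and 0.16, lay at the 78.9th and 33.5th percentiles of all genes. Ctsb measured 11.42, 11.48 and 11.57 in ASC-Ns, 11.25, 10.97 and 11.96 in ASC-Ls, and 11.54, 11.38 and 11.73 in ASC-Is. The ASC-L arrays bracketed those of both other stages, and the 3 differences were -0.10, -0.16 and 0.06.

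Ctsl measured 12.06, 11.94 and 12.12 in ASC-Ns, 12.05, 12.11 and 12.53 in ASC-Ls, and 12.29, 12.27 and 12.29 in ASC-Is. The 3 ASC-I arrays were nearly equal and lay above every ASC-N array, as did those of Atp6v0d2, while 6.54% of all genes did not overlap in that comparison. The mean difference was 0.24 (SE 0.14, 95% interval -0.08 to 0.56), under the 1.5-fold limit.

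Ctss, the cathepsin of antigen-presenting cells that trims the invariant chain of MHC class II, had the largest difference of any member. It measured 10.27, 9.84 and 6.84 in ASC-Ns, 8.75, 9.20 and 8.47 in ASC-Ls, and 10.79, 9.98 and 9.62 in ASC-Is. Every ASC-L array lay below every ASC-I array, where 5.56% of all genes did not overlap, and ASC-Ns held both the lowest array of all and values of the ASC-I range. The ASC-L mean differed from the ASC-I mean by -1.33, which is 2.51-fold lower (SE 0.78, 95% interval -3.09 to 0.43, limma, adjusted p = 1.00). ASC-Is were 1.15 above ASC-Ns (SE 0.78) and ASC-Ls differed from ASC-Ns by -0.18 (SE 0.78). Without ASC-N replicate 1 ASC-Is were 1.79 above ASC-Ns (SE 0.77, limma, adjusted p = 1.00), which passed the limits, with 0.161% of all genes called.

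The call for Ctss turned on how the spread was estimated. In the fit of all stages the ASC-N array at 6.84 enters the shared spread. A block for replicate number assumes that same-numbered arrays are paired, which neither the labels nor the data established. It covered the ASC-N arrays too, although their replicate 1 hardly correlated with the same-numbered arrays of the other stages. With this block the same -1.33 passed the limits (SE 0.55, limma, adjusted p = 0.996), with 1.04% of all genes called. It also passed with only the ASC-L and ASC-I arrays in the fit (SE 0.33, 0.602% of all genes called) and without ASC-N replicate 3 (SE 0.31, 0.697%). In that last setting ASC-Ls also differed from ASC-Ns, by -1.25 (SE 0.35, with 1.77% of all genes called). The adjusted p was 0.838 or more in each of these settings.

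Ctss moved with the macrophage list from array to array. The array lowest in Ctss (6.84) had the lowest macrophage mean (5.96), and the array highest in Ctss (10.79) had the highest (8.07). The 3 ASC-L arrays, at 8.47 to 9.20, had macrophage means of 6.29 to 6.44. Among defining macrophage genes, Adgre1 (F4/80) was at 5.37 to 5.52 in ASC-Ls against 5.63 to 8.02 in ASC-Is, Lyz2 at 9.29 to 10.26 against 10.56 to 12.16, and Cd68 at 8.10 to 8.26 against 8.63 to 10.42. The part of macrophages in the difference of Ctss was not tested.

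**Figure D2:**
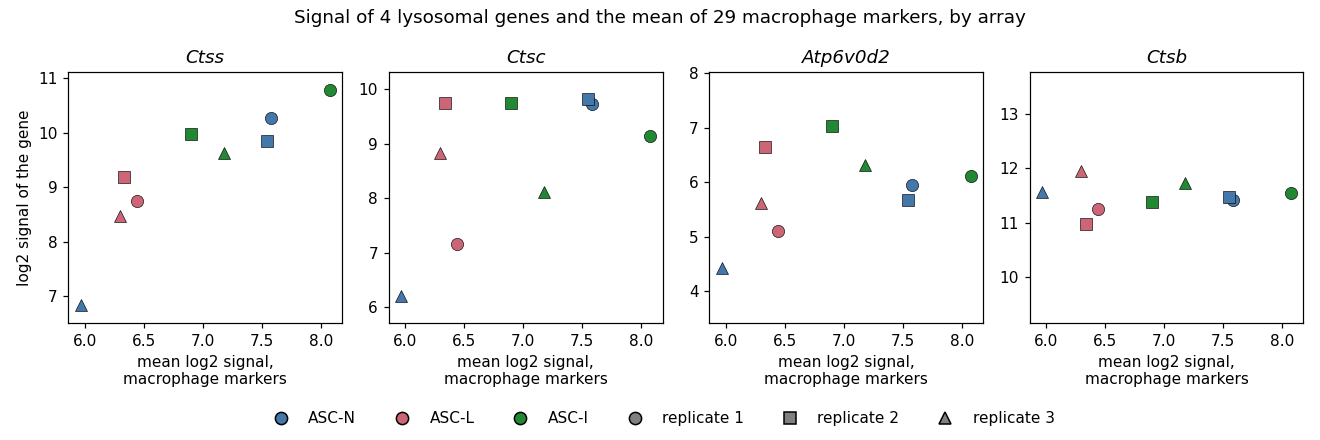
Log2 signal of Ctss, Ctsc, Atp6v0d2 and Ctsb (vertical axes) against the mean log2 signal of 29 macrophage markers (horizontal axes) in each of 9 arrays, colored by stage and shaped by replicate number. Ctss runs from 6.84 to 10.79 as the marker mean runs from 5.96 to 8.07, whereas Ctsb stays between 10.97 and 11.96.

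Ctsc, dipeptidyl peptidase I, which activates the serine proteases of neutrophils and cytotoxic cells, varied most of all members within stages. It measured 9.73, 9.82 and 6.21 in ASC-Ns, 7.15, 9.75 and 8.82 in ASC-Ls, and 9.13, 9.74 and 8.11 in ASC-Is. Its SD within stages, 1.49, lay at the 99.6th percentile of all genes, and the 3 differences of -0.01, -0.42 and 0.41 were small beside it. The lowest array was again ASC-N replicate 3.

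Ctsk, the collagen-degrading cathepsin of osteoclasts and activated fibroblasts, was set apart by 1 array. It measured 9.78, 10.11 and 10.70 in ASC-Ns, 9.62, 9.16 and 11.86 in ASC-Ls, and 9.70, 9.70 and 10.21 in ASC-Is. ASC-L replicate 3 lay above every other array, and the other ASC-L arrays were the lowest of all. With all arrays ASC-Ls differed from ASC-Ns by 0.02 (SE 0.61), and without replicate 3 by -0.81 (SE 0.29, limma, adjusted p = 0.983), which passed the limits, with 1.15% of all genes called.

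Ctsw, a protease of T cells and natural killer cells, measured 5.07, 5.04 and 4.87 in ASC-Ns, 4.97, 6.82 and 5.10 in ASC-Ls, and 5.14, 5.68 and 4.86 in ASC-Is. Its mean was 0.63 higher in ASC-Ls than ASC-Ns (SE 0.44), with the epithelium-rich replicate 2 far above the other ASC-L arrays, which overlapped ASC-Ns. Without the 2 epithelium-rich arrays and ASC-N replicate 3 the difference was -0.02. T cell markers were low in all arrays, with list means of 4.82 to 5.11.

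Ctsf and Ctso followed the opposite array pattern and were lowest in both epithelium-rich arrays. Ctsf measured 7.44, 6.84 and 8.18 in ASC-Ns, 7.54, 6.54 and 7.34 in ASC-Ls, and 7.96, 6.79 and 8.24 in ASC-Is. Its ASC-L mean differed from that of ASC-Is by -0.52 (SE 0.45). Without ASC-I replicate 2 it differed by -0.96 (SE 0.41, limma, adjusted p = 0.962), which passed the limits, with 1.59% of all genes called. Ctso ranged from 6.06 in ASC-L replicate 2 to 8.25 in ASC-I replicate 3, and its largest difference was -0.41 (ASC-Ls against ASC-Ns, SE 0.56). Ctsh and Ctsz, a carboxy-terminal exopeptidase in the case of Ctsz, differed by -0.21 to 0.24 with overlap between stages.

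Aspartic and serine cathepsins were lower on average in ASC-Ls than ASC-Ns for 3 of 3 genes, by less than their spread. Ctsd, the main aspartic protease of lysosomes, measured 11.91, 11.92 and 12.31 in ASC-Ns, 11.57, 11.53 and 12.29 in ASC-Ls, and 12.17, 11.69 and 12.33 in ASC-Is. Its ASC-L mean differed from ASC-Ns by -0.25 (SE 0.24) and from ASC-Is by -0.27 (SE 0.24). Replicates 1 and 2 of ASC-L were the lowest of all arrays and replicate 3 was among the highest. Ctsa, a carboxypeptidase that protects other lysosomal enzymes, ranged from 9.42 to 10.94, both in ASC-Ls, and its differences were -0.13, -0.09 and -0.04.

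Ctse, an aspartic protease of stomach and immune cells, was dim and did not separate the stages. It measured 5.24, 5.65 and 4.86 in ASC-Ns, 5.21, 5.08 and 5.14 in ASC-Ls, and 5.30, 5.14 and 4.89 in ASC-Is. Legumain, which cleaves after asparagine and helps to mature cathepsins, measured 11.30, 11.33 and 10.82 in ASC-Ns, 11.08, 10.57 and 11.25 in ASC-Ls, and 11.23, 11.10 and 11.08 in ASC-Is. Both genes overlapped between all stages, and the largest difference of Lgmn was -0.18 (ASC-Ls against ASC-Ns, SE 0.20).

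Lamp1 and Lamp2, the heavily glycosylated proteins that line the lysosomal membrane, had nearly equal means in the 3 stages. Lamp1 measured 11.14, 11.30 and 11.53 in ASC-Ns, 11.13, 10.99 and 11.78 in ASC-Ls, and 11.27, 11.15 and 11.39 in ASC-Is. Lamp2 measured 10.78, 10.92 and 10.83, then 10.77, 10.32 and 11.31, then 10.72, 10.62 and 11.07. The largest of their 6 differences was -0.05, and each 95% interval lay inside 1.5-fold, the widest reaching from -0.57 to 0.48.

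Hexa, the alpha subunit of hexosaminidase, which degrades gangliosides, measured 10.22, 10.50 and 11.19 in ASC-Ns, 10.29, 9.54 and 11.23 in ASC-Ls, and 10.59, 9.88 and 11.05 in ASC-Is. Npc2, which hands cholesterol to the lysosomal membrane for export, measured 9.58, 9.82 and 10.27, then 9.45, 9.31 and 10.47, then 9.70, 9.44 and 10.17. For both genes replicate 3 was the highest array of every stage, and the stages overlapped. Their differences lay between -0.28 and -0.03.

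**Figure D3:**
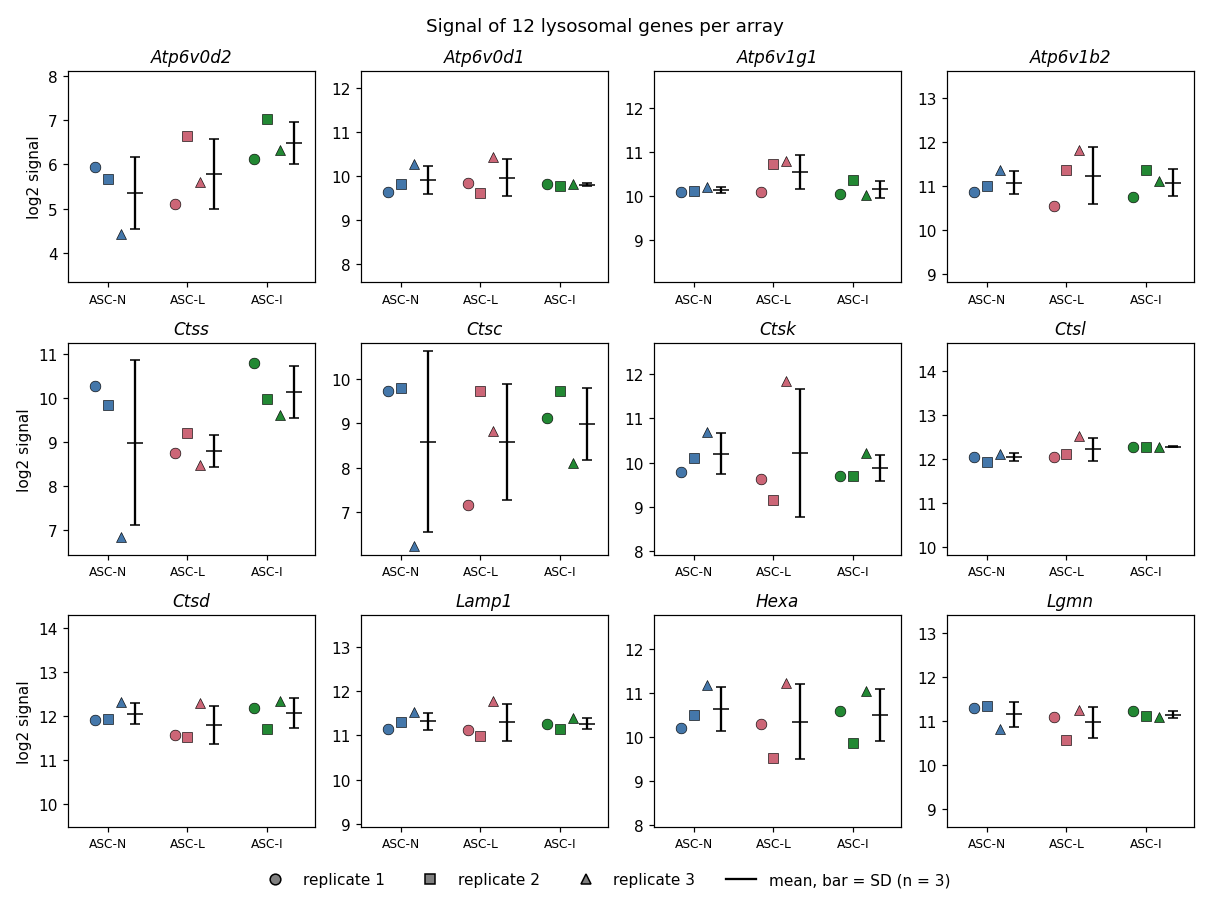
Log2 signal of 12 lysosomal genes (vertical axes, all spanning the same range) in each array of the 3 stages (horizontal axes). Symbols give replicate numbers, and bars give the mean and SD of n = 3. ASC-Is lie above ASC-Ns for Atp6v0d2 and Ctsl, ASC-Ls lie below ASC-Is for Ctss, and ASC-L replicate 3 is the highest array for Ctsk, Lamp1, Hexa, Atp6v0d1, Atp6v1b2, Atp6v1g1 and Ctsl.

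Stage means lay close together beside the spread of single arrays for most members. A mean of 3 arrays varies less than a single array, so both measures differ in kind and the counts are descriptive. Members also shared much of their order between arrays and are not separate results. The range of the 3 stage means was smaller than the SD within stages for 34 of 41 members (82.9%) and for 61.3% of all genes, and the median SD was 0.32 for members and 0.20 for all genes. ASC-L replicate 3 was the highest of the 9 arrays for 23 of 41 members, and for 13.1% of all genes. ASC-L replicate 2 was the lowest for 19 of 41, and for 19.8% of all genes. Between these 2 arrays of the same stage 35 of 41 members were higher in replicate 3, by a median of 0.57, against 53.7% of all genes and a median of 0.04. The exceptions were Ctss, Ctsc, Ctsw, Atp6v0d2, Atp6v1c2 and Atp6v1g3.

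Other lists differed in how far they had the same order of these arrays. Of 42 other lysosomal hydrolases 37 were higher in ASC-L replicate 3 than in replicate 2 (median 0.93), and of 28 other lysosomal membrane proteins 26 were (median 0.57). The lists of lysosomal transcription (15 of 20, median 0.40), autophagy (17 of 22, 0.24) and cathepsin inhibitors (8 of 10, 0.27) leaned less far. The counts were lower or the medians smaller for other pump and assembly genes (8 of 12, 0.13), mannose 6-phosphate sorting (6 of 10, 0.22) and cathepsins outside the rule (6 of 8, 0.10), while osteoclast and fusion genes ran the other way (2 of 11, -0.26). Fibroblast markers were higher in replicate 3 for 13 of 14 genes (median 1.08), whereas luminal markers were lower for 15 of 17 and basal markers for 10 of 10 (medians -2.18 and -2.21). The part of these cell types in the order was not tested.

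**Figure D4:**
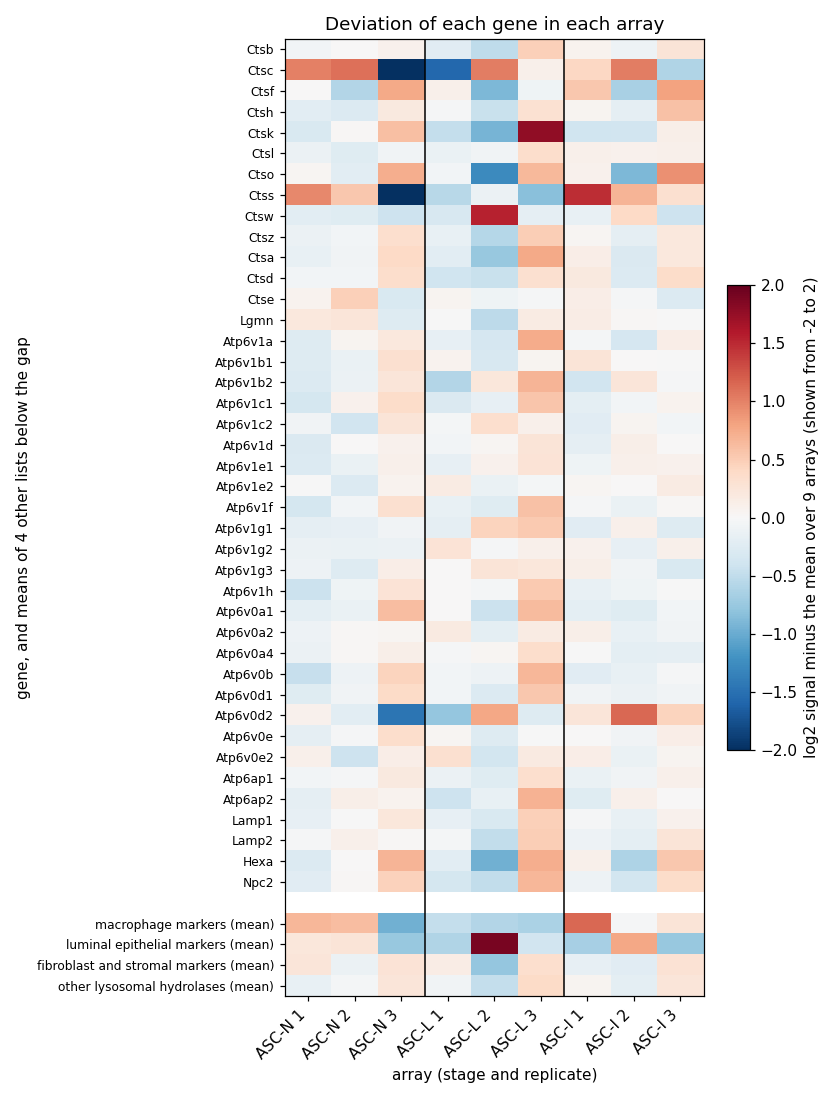
Deviation of log2 signal from the mean over 9 arrays for each gene (rows) in each array (columns), with the mean of 4 other lists at the bottom and colors ending at -2 and 2. ASC-L replicate 3 is red for most genes and ASC-L replicate 2 blue for most, and Ctss and the macrophage mean share the blue cell of ASC-N replicate 3.

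The wider pathway was followed in 163 measured genes of 9 lists, which held 181 genes. At the limits used above, no gene was called between ASC-Ls and ASC-Ns and none between ASC-Is and ASC-Ns. With no fold limit, limma gave a p under 0.05 before adjustment there for 4 and 2 of the 163. These were 2.45% and 1.23%, against 3.64% and 1.56% of all genes. The 1 called gene was Laptm5, a lysosomal membrane protein of hematopoietic cells, in ASC-Ls against ASC-Is, where 0.482% of all genes were called. It measured 8.87, 8.53 and 6.64 in ASC-Ns, 7.11, 7.06 and 6.64 in ASC-Ls, and 9.36, 7.89 and 8.44 in ASC-Is. The ASC-L mean differed from the ASC-I mean by -1.63 (SE 0.56, limma, adjusted p = 1.00). Macrophage list means were 7.58, 7.55 and 5.96 in ASC-Ns, 6.44, 6.34 and 6.29 in ASC-Ls, and 8.07, 6.90 and 7.18 in ASC-Is, and their part in the difference of Laptm5 was not tested.

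No pump gene outside the rule was called. Tcirg1, the a3 subunit of the osteoclast pump, differed by 0.04, 0.09 and -0.05 in the 3 comparisons, and the 12 measured genes of the pump and assembly list had medians of 0.01, 0.05 and 0.04. The genes of that list with the widest differences were Dmxl2 and Dmxl1, which help V1 bind to V0. Dmxl2 differed by -0.43 between ASC-Ls and ASC-Is (SE 0.19), and Dmxl1 by 0.26 between ASC-Ls and ASC-Ns (SE 0.12).

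Among other hydrolases 31 of 42 had a lower mean in ASC-Ls than ASC-Ns (median -0.09) and 33 of 42 a lower mean than in ASC-Is (median -0.10), and none was called. Over all genes 51.7% and 52% had a higher mean in ASC-Ls. The epithelium-rich ASC-L replicate 2 was the lowest of the 9 arrays for 30 of the 42, and list means in ASC-Ls were 8.49, 8.10 and 8.96. They were 8.43, 8.54 and 8.82 in ASC-Ns and 8.63, 8.38 and 8.81 in ASC-Is. Replicates 1 and 3 of ASC-L thus lay within or above the range of both other stages, and only replicate 2 lay below it. How many of these hydrolases were lower without replicate 2 was not counted. Cpq, a plasma glutamate carboxypeptidase, and Gla, the alpha-galactosidase, had the largest differences, -0.56 (SE 0.55) and 0.48 (SE 0.54), both between ASC-Ls and ASC-Is. Acp5, the tartrate-resistant phosphatase of osteoclasts and macrophages, was highest in both epithelium-rich arrays (7.62 and 8.01), as was Atp6v0d2. Genes of osteoclast formation and cell fusion showed no call among 11. Mmp9, a gelatinase of osteoclasts and neutrophils, reached 10.96 in ASC-L replicate 2 and lay between 6.01 and 8.68 elsewhere, and Itgb3 reached 9.39 in the same array.

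No regulator of lysosomal genes was called. Zkscan3, a zinc finger protein known in human cells as a repressor of autophagy and lysosomal genes, measured 7.66, 7.79 and 7.65 in ASC-Ns, 7.44, 7.46 and 7.35 in ASC-Ls, and 7.46, 7.34 and 7.56 in ASC-Is. Its ASC-N arrays lay above all arrays of both other stages, and 8.59% (ASC-Ls) and 6.54% (ASC-Is) of all genes did not overlap with ASC-Ns. Its differences were -0.28 for ASC-Ls and -0.25 for ASC-Is (SE 0.11 each), under the 1.5-fold limit. Tfeb, the factor named above for the E-box, lay between 6.25 and 6.65 in all 9 arrays and differed by 0.03, -0.10 and 0.13. In the list of 20 genes of lysosomal transcription and mTORC1 sensing the widest differences were those of Rragb, -0.63 (SE 0.37), and Rragd, 0.56 (SE 0.55), both between ASC-Ls and ASC-Ns, and both encode Rag GTPases of nutrient sensing. Medians of the 22 autophagy genes were -0.03, -0.09 and 0.01, with Rb1cc1 and Wipi1 reaching 0.40 and -0.35.

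No gene of sorting to lysosomes or of cathepsin inhibition was called. In the mannose 6-phosphate list, Gga2 and Sort1, which carry enzymes from the Golgi, had the largest differences of 10 genes, -0.37 and 0.27, both between ASC-Is and ASC-Ns. Of 10 measured cathepsin inhibitors 7 had a higher mean in ASC-Ls than ASC-Ns (median 0.15), led by Ctla2a (0.76, SE 0.64), with Cst6 at 0.70 between ASC-Ls and ASC-Is (SE 0.42). Of the 8 measured cathepsins outside the rule, which in mice serve mainly the placenta or granules of neutrophils, all had a higher mean in ASC-Ls than ASC-Ns (median 0.17) at list means of 3.90 to 4.19, in the dim range. Ctsg, the neutrophil protease, differed most (0.41, SE 0.17, under the 1.5-fold limit), and Ctsq by 0.29 between ASC-Is and ASC-Ns (SE 0.14).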

How the data were processed

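Total RNA of 9 preparations was measured on Affymetrix Mouse Gene 1.0 ST arrays. The deposited values are log2 signals per probe set, which the authors background corrected and normalized between arrays. The study's methods name robust multi-array average for this step, whereas the submitters' processing notes name GCRMA and limma, whose versions are not given in the sources used here. Array medians of the deposited values were 5.93 to 6.00, and no further normalization was applied. Of 28348 probe sets, 21762 with 1 gene symbol in the array annotation were averaged to 19930 genes, and 1621 with several symbols and 4965 without a symbol were not used. Entrez identifiers of all 41 members carried the same symbol in RefSeq.

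Stage means were fitted over all 9 arrays with limma 3.58.1 in R 4.3.3 and moderated by empirical Bayes (2.91 prior degrees of freedom), and p-values were adjusted over all genes. The script was tested on simulated data. For the called member an exact permutation test over arrays was added after the values were seen. The number of arrays limits the precision. Members, lists and tests were chosen with earlier results of these data known. Values of all arrays were given for members called in any comparison, for the 2 members of each role with the largest change where none was called, and for Atp6v0d1, Ctsd, Ctsb, Ctsl and Lamp1, while Ctsc, Ctsk, Ctsf, Atp6v1g2 and some pathway genes were chosen after their values were seen.

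Replicate numbers are shared between stages. Across genes, deviations from the stage means correlated at 0.47, 0.73 and 0.46 between same-numbered arrays of ASC-L and ASC-I. The values were -0.08, 0.40 and 0.45 for ASC-L with ASC-N, and 0.07, 0.43 and 0.50 for ASC-I with ASC-N. Replicate 1 thus correlated between ASC-L and ASC-I but hardly with ASC-N. Arrays of different numbers were not compared, and both replicate 2 arrays of ASC-L and ASC-I shared a high epithelial signal. These values therefore cannot show whether arrays were paired, and the labels state no pairing. The replicate block was nevertheless applied in every comparison. Its results rest on an assumed pairing, for which replicate 1 of ASC-N gave no correlation. Alternatives were array weights, a robust prior with an intensity trend, a fit of only the stages compared, quantile normalization, cyclic loess, filters on low signal or low variation, probe sets in place of genes, the replicate block, and leaving out arrays. Scanner files, slides and scan dates were not used here.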

Additional observations from a re-analysis of the deposited data

How the results depend on the processing

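The count of members called between ASC-Ls and ASC-Ns was 0 and became 2 without ASC-L and ASC-I replicate 2 and ASC-N replicate 3 together, a setting chosen after seeing the data (Ctss and Ctsc, with 4.61% of all genes called), and 0 to 1 when single arrays were left out (0.401% to 2.03%). Between ASC-Ls and ASC-Is it was 0 and became 1 with only the stages compared (0.602% of all genes called), 1 with the replicate block (1.04%), 3 without those 3 arrays (Ctss, Ctsf and Atp6v0d2, with 1.48%), and 0 to 1 without single arrays (0.181% to 1.66%). For ASC-Is against ASC-Ns the count of 1 became 0 with the intensity trend and robust prior (0.221% of all genes called), 0 with array weights (0.938%), 0 with cyclic loess (0.211%), 0 without the 2 epithelium-rich arrays (0.723%) and 0 at an adjusted p under 0.05, and 0 to 2 without single arrays (0.161% to 1.11%). Without the 3 arrays it was again 1, but the gene was Ctsf (0.96, SE 0.22, limma, adjusted p = 0.214, with 4.8% of all genes called) and not Atp6v0d2. For Atp6v0d2 between these stages the difference kept its sign in 20 of 20 settings, from 0.41 to 1.44, and passed the limits in 11 of them, the replicate block included, with 1.14 under the intensity trend, 0.69 under array weights and 1.12 under cyclic loess, which did not pass. The block changed the call of no member other than Ctss. The block assumes a pairing of same-numbered arrays that was not established, and replicate 1 of ASC-N hardly correlated with the same-numbered arrays of the other stages.

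Pathway genes called between ASC-Ls and ASC-Ns (0) became 1 with array weights (1.56% of all genes called) and 3 with the replicate block (1.48%). They became 2 without the 3 arrays (4.61%) and 0 to 3 without single arrays (0.401% to 2.03%). Between ASC-Ls and ASC-Is (1) they became 2 without the 2 epithelium-rich arrays (0.973%) and 2 without the 3 arrays (1.48%). Without single arrays they became 0 to 4 (0.181% to 1.66%). Between ASC-Is and ASC-Ns (0) they became 1 without the 2 arrays (0.723%) and 4 without the 3 arrays (4.8%). Without single arrays they became 0 to 2 (0.161% to 1.11%). Where such settings changed a count the cause was not tested. With 3 arrays per stage, differences well above the fold limit could not be bounded in the most variable genes. The 95% interval of Ctsc, for example, ran from -2.28 to 2.26 for ASC-Ls against ASC-Ns. In addition, 8 members had a mean signal below the array median over genes.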
